A study of Mus musculus with 12 samples.

Results

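The phagocyte NADPH oxidase is described here through 7 genes chosen by name: Cybb, Cyba, Ncf1, Ncf4 and Rac2, which encode phagocyte subunits, and Rac1 and Nox4, which are set against them because cells outside the phagocyte lineage use them widely. All probes whose RefSeq accession belongs to one of these genes were taken. The 7 genes are among 20887 named genes on the array and are measured by 10 of its 55681 probes, or 19 spots. Of the 7 genes, 6 have a probe that passed the filter on dim probes, and Cybb does not.

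The arrays compared differentiated neurospheres, which are aggregates of neural progenitor cells, from the telencephalon of C57BL/6 mouse embryos at day 13. WT neurospheres carried no transgene, and APP_WT neurospheres came from transgenic embryos of a model of Alzheimer's disease with a chimeric mouse/human APP carrying the Swedish mutations, directed to neurons of the central nervous system. BK_APP and HOE_APP neurospheres came from the same transgenic line and received 1 µM bradykinin (BK), the peptide that activates the B2 kinin receptor, or 1 µM HOE-140, which blocks that receptor, on days 0, 3 and 6 of differentiation. All cultures grew for 5 days in suspension according to the labels and differentiated for 7 days without growth factors. APP_WT neurospheres were untreated, and no group of WT neurospheres received either drug. There were 12 2-color arrays, 4 for each of the comparisons APP_WT over WT, BK_APP over APP_WT and HOE_APP over APP_WT. Each array held 1 replicate of both conditions, labeled from 100 ng of RNA, and the first condition was in Cy5 on 2 arrays and in Cy3 on the other two. The methods call the replicates independent, and how many embryos went into each is not given in the sources used here. On the HOE_APP arrays both channel labels carry one and the same treatment. The direction of every HOE_APP value is therefore likely only, and rests on the label of the first channel, the titles and the swapped design.

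Between 44.4 and 52% of the spots of an array were well above background. All 8 neuron markers and all 7 astrocyte markers of the lists used were expressed. The App probe read 0.12 ± 0.044 (log2 fold change and SE) in APP_WT over WT with an adjusted p of 0.0925 in limma, and whether it detects the chimeric transgene is not known here. Prnp, the prion protein gene, read 0.75 ± 0.15 with an adjusted p of 0.00581, from 1.57 on array 3 and 0.25 to 0.59 on the others, and the mean was 0.48 without array 3. The 4 arrays of APP_WT over WT were on slide 1 and the 8 arrays of the drug comparisons on slide 2, so slide and comparison cannot be told apart.

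In phagocytes, the NADPH oxidase moves electrons from NADPH across the membrane onto oxygen and so makes superoxide. Its catalytic core in the membrane is gp91phox (Cybb) bound to p22phox (Cyba), and on activation cytosolic subunits, among them p47phox (Ncf1) and p40phox (Ncf4), join it together with the GTPase Rac2. In the brain this enzyme is best known from microglia. Rac1 is the Rac GTPase of most cell types and acts in cell movement as well as in oxidases, and Nox4 is a catalytic subunit that also pairs with p22phox but needs no cytosolic subunits.

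RefSeq promoter sequences (build GRCm38.p6) were at hand for 4 of the 7 genes, Cybb, Cyba, Ncf1 and Nox4. They are shown because in APP_WT over WT the test called Cyba and Ncf1, while Nox4 did not pass and Cybb was at background. Each line gives the 250 bases before the 1 start that the promoter set holds for the gene, from 5′ to 3′ on the gene's own strand, with matches to the motifs searched in capitals. The window of Cybb is chrX:9469325-9469574, on the minus strand, and that of Ncf1 is chr5:134229626-134229875, on the minus strand. The window of Cyba is chr8:122432941-122433190, on the minus strand, and that of Nox4 is chr7:87246399-87246648, on the plus strand. The windows of Cybb and Nox4 lie inside the span of the RefSeq gene record and so precede the start of 1 transcript and not of the whole gene, that of Ncf1 overlaps its record by 3 bases, and that of Cyba ends where its record begins.
Cybb: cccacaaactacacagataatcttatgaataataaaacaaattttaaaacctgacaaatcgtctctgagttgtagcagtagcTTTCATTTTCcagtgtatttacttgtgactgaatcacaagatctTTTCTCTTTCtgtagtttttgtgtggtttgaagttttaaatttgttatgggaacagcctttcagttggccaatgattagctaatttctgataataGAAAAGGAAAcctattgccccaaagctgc
Ncf1: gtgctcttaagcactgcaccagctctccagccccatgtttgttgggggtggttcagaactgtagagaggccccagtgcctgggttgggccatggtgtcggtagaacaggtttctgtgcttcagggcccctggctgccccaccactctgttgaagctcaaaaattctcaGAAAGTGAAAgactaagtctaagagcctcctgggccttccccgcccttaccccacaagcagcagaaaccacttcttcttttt
Cyba: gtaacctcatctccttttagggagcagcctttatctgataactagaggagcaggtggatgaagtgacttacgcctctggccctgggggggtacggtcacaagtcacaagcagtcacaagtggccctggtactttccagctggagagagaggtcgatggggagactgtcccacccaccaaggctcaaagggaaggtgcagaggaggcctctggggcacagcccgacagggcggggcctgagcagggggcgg
Nox4: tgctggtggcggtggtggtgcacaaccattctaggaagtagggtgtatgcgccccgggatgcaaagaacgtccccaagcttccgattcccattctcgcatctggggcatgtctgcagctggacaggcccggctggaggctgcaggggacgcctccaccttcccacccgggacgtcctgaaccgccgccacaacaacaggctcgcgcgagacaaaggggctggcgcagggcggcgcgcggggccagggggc
The capitals mark a pair of GAAA with any 2 bases between them, the core of an interferon-stimulated element, on either strand. Cybb held 3 matches, of which the nearest began 29 bases before that start, and Ncf1 held 1, which began 82 bases before it. Cyba and Nox4 held none. Of 32851 promoters of this length, 2.98% held the motif. The letters GAGGAA, a form of the PU.1 site, were in 23.3% of the promoters and in none of these 4. Neither the longer form ending in GT (2.44%) nor an NF-kB site (7.25%) was found in any of the 4. Other forms of the PU.1 site were not searched, so these windows may still hold such a site. PU.1 is the lineage factor of phagocytes, and NF-kB drives inflammatory genes. A match describes the letters of the window and nothing more.

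In APP_WT neurospheres 4 of the 5 phagocyte subunits were higher than in WT neurospheres by limma at an adjusted p under 0.05. Of all expressed probes 18.5% were called, 11.6% as higher and 7% as lower. The log2 fold change was largest for Cyba, followed by Rac2, Ncf4 and Ncf1, an order that turned with the signals processed by the scanner software, where Ncf4 and Rac2 read more than Cyba. Cybb, the catalytic subunit, was at background and was not tested, and neither Rac1 nor Nox4 passed the test.

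Cyba encodes p22phox, the partner that stabilizes gp91phox and other NOX proteins. Its brighter probe gave log2 ratios of APP_WT over WT of 1.66, 1.70, 1.94 and 1.92 on arrays 1 to 4. All 4 were far above 0, and the higher values were those of the arrays with APP_WT in Cy5. The log2 fold change was 1.81 ± 0.071 (SE), 3.5-fold, with an adjusted p of 1.29e-07 in limma, and ranked at 41 of 29361 probes. The level of this probe was between 7.75 and 7.93 in WT and between 9.45 and 9.86 in APP_WT on the log2 scale of the arrays. The dimmer Cyba probe gave 0.45, 0.56, 0.53 and 0.66, with a log2 fold change of 0.55 ± 0.060 and an adjusted p of 0.000123. Both probes showed the same direction on 4 of 4 arrays and differed in size. The dimmer one was well above background on 1 of 4 WT arrays and on 3 of 4 APP_WT arrays.

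Rac2 encodes the Rac GTPase of blood cells, which is part of the active enzyme. Its probe is printed in 10 spots on each array, and the mean ratios were 0.92, 1.11, 1.08 and 1.38. On every one of these arrays all 10 spots were above 0, with an SD over spots between 0.1 and 0.3. This gave a log2 fold change of 1.12 ± 0.077 with an adjusted p of 4.17e-06. WT levels lay between 6.36 and 6.65 and APP_WT levels between 7.30 and 8.03. Few WT spots were well above background, 5 of 10 on array 1 and 0 or 1 on the others.

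Ncf4 encodes p40phox, which binds phosphoinositides at the phagosome. Its ratios were 0.74, 0.81, 0.70 and 1.03, all of similar size. They gave a log2 fold change of 0.82 ± 0.084 with an adjusted p of 7.31e-05. In WT it did not clear the background on any array and in APP_WT it was well above it on 4 of 4. The measured difference was 1.77-fold and rests on a WT signal at background. The confidence interval of the log2 fold change in limma ran from 0.636 to 1.01.

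Ncf1 encodes p47phox, the organizer that carries the cytosolic subunits to the membrane once it is phosphorylated. Its ratios were 0.39, 0.64, 0.53 and 0.37, above 0 on 4 of 4 arrays. The log2 fold change was 0.49 ± 0.12 with an adjusted p of 0.0186. WT gave no array well above background and APP_WT gave 2. The measured difference was 1.4-fold and rests on a WT signal at background. The confidence interval of the log2 fold change in limma ran from 0.216 to 0.755. The call was lost without array 2, 3 or 4, where the adjusted p rose to as much as 0.0949, and held without array 1 (0.0258), and the log2 fold change stayed between 0.42 and 0.55.

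Cybb encodes gp91phox, the subunit that carries the electrons. Its 1 probe cleared the background on no array of WT or APP_WT in this comparison. Ratios of 0.18, 0.057, 0.068 and 0.12 had a mean of 0.11 ± 0.058 (SD, n = 4), and the levels of WT (6.11 to 6.26) and APP_WT (6.18 to 6.38) overlapped. With no filter on dim probes its adjusted p was 0.26. A difference of Cybb was not detectable at this signal.

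**Figure D1:**
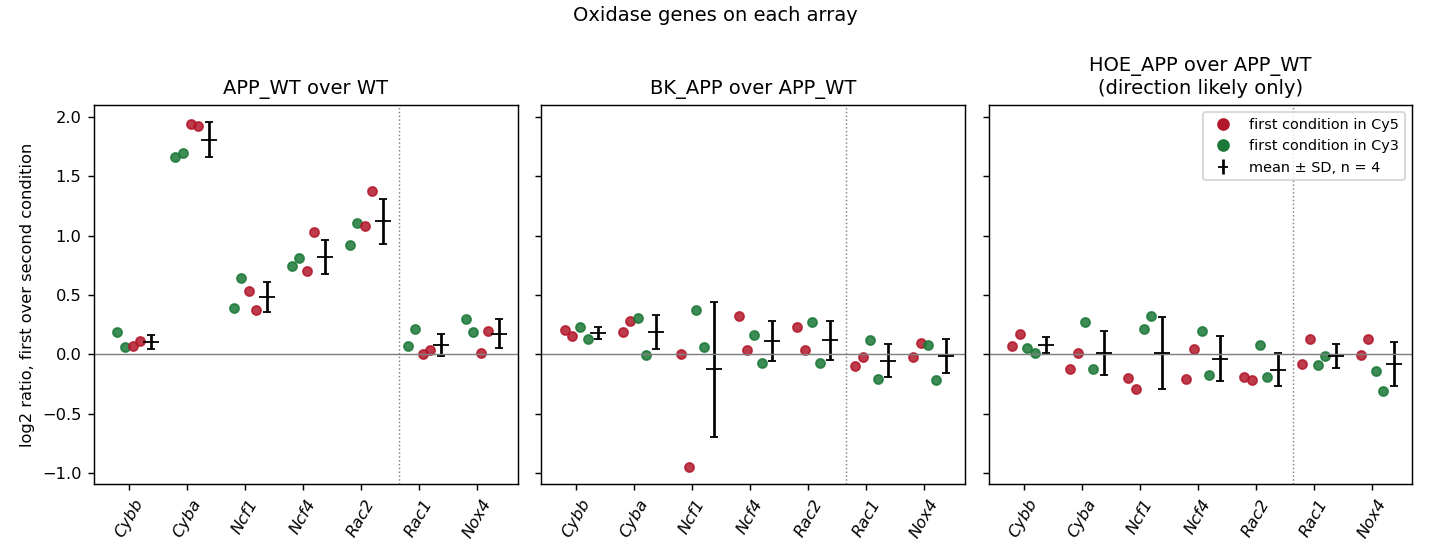
Log2 ratios (first over second condition) of the main probe of each of the 7 genes on the 4 arrays of each comparison, colored by the dye of the first condition, with mean ± SD in black. Cyba, Ncf1, Ncf4 and Rac2 lie above 0 on all arrays of APP_WT over WT, whereas values in the drug comparisons lie near 0, apart from 1 Ncf1 array at -0.95.

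Neither Rac1 nor Nox4 was called. The brighter Rac1 probe gave ratios of 0.071, 0.21, 0.0052 and 0.033, with a log2 fold change of 0.08 ± 0.062 and an adjusted p of 0.419. The second Rac1 probe gave 0.11 ± 0.050 (adjusted p 0.174). These values were not distinguishable from 0, and with median centring in place of loess both changed sign, to -0.097 and -0.055. The expressed Nox4 probe gave 0.30, 0.19, 0.0098 and 0.20, with a log2 fold change of 0.17 ± 0.064 and an adjusted p of 0.0864. All 4 Nox4 ratios were above 0 but the smallest was almost at it, and the probe was well above background on 1 WT and 2 APP_WT arrays. The other Nox4 probe did not pass the filter.

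The size of the change in the dim subunits depended on the signals used. With the signals processed by the scanner software, to which no offset is added, the log2 fold changes were 2.05 for Cyba, 2.66 for Rac2, 2.76 for Ncf4 and 2.06 for Ncf1, with adjusted p-values from 5.96e-06 to 0.00123 in limma, and Cybb read 0.84. In these values Cyba was no longer the largest. Nox4 then read 0.66 and passed the test with an adjusted p of 0.00321. The direction of the 4 called subunits was the same under each setting tried that gave them a value. Across all probes that scaling turned the balance of calls, with 34.3% of them higher in place of 62.3%, and median centring gave 36.4%.

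The subunits were set against Rac1 and Nox4 on the same array by subtracting the log2 ratios, which compares changes and not levels. Over the 5 subunits, the 2 genes set against them and the 3 comparisons this gave 30 pairs. In APP_WT over WT, Cyba exceeded Rac1 by 1.59, 1.49, 1.93 and 1.89, Rac2 exceeded it by 0.85, 0.90, 1.08 and 1.35, Ncf4 by 0.67, 0.60, 0.70 and 0.99, and Ncf1 by 0.32, 0.43, 0.53 and 0.34. These 4 subunits were above Rac1 on every array, and above Nox4 as well, with mean differences to Nox4 between 0.31 for Ncf1 and 1.63 for Cyba. At 15.1% of all expressed probes the ratio itself was above 0 on all 4 arrays. The share of probes above Rac1 or Nox4 on all 4 was not counted. Cybb differed from Rac1 by 0.026 ± 0.12 (SD) and from Nox4 by -0.068 ± 0.086, in no common direction. In an exact two-sided sign-flip permutation test each of the 8 differences had the smallest p that 4 arrays allow, which is above the threshold, and p = 0.234 after Benjamini-Hochberg adjustment over the 30 pairs, so none could pass.

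**Figure D2:**
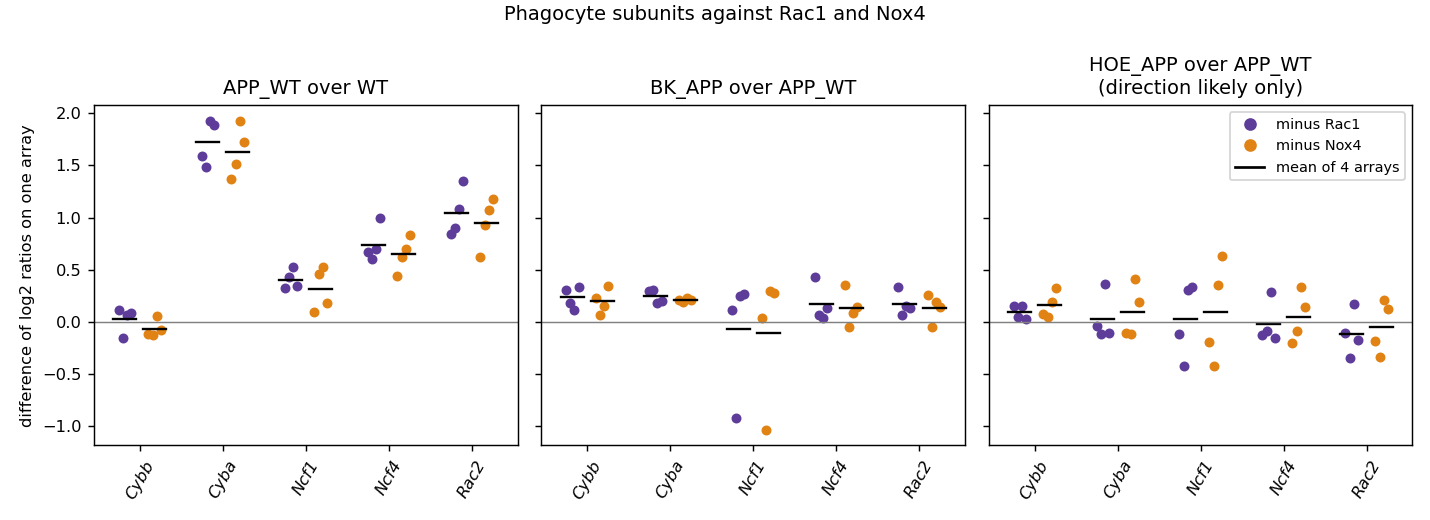
Difference between the log2 ratio of each phagocyte subunit and that of Rac1 (purple) or Nox4 (orange) on the same array, with the mean of 4 arrays as a black line. In APP_WT over WT all points of Cyba, Ncf1, Ncf4 and Rac2 lie above 0 and those of Cybb lie around it.

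No member passed the test with bradykinin. The limma model called 0 of the 5 subunits and 0% of all probes in BK_APP over APP_WT, whereas 4.47% of all probes had an unadjusted p under 0.05. SAM and rank products, the pair of tests that the methods name, called 533 probes (1.83%) at an unadjusted p of 0.05, and among the subunits Cyba.

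The brighter Cyba probe gave BK_APP over APP_WT ratios of 0.19, 0.28, 0.30 and -0.0088. They were above 0 on 3 arrays and near 0 on the fourth. The log2 fold change was 0.19 ± 0.071, 1.14-fold, with an adjusted p of 0.967 in limma, and it was under 0.05 unadjusted in limma, SAM and rank products. The dimmer probe gave 0.036, 0.25, 0.064 and 0.15 and a log2 fold change of 0.12 ± 0.060 (adjusted p 0.967). Its 4 values were all above 0, as were those of 5.06% of all probes.

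Rac2 gave ratios of 0.23, 0.04, 0.27 and -0.073 and Ncf4 of 0.33, 0.039, 0.16 and -0.072. Both were positive on 3 arrays and negative on array 4, where Cyba too was below 0. The log2 fold changes were 0.12 ± 0.077 for Rac2 and 0.11 ± 0.084 for Ncf4, with an adjusted p of 0.967 for each. Ncf1 gave 0.0052, -0.95, 0.37 and 0.062. Array 2 stood apart: there the untreated sample reached a level of 7.97, above all other APP_WT levels of Ncf1. The log2 fold change was -0.13 ± 0.12 with an adjusted p of 0.967, and it was 0.11 without that array. Cybb gave 0.21, 0.16, 0.23 and 0.13, all above 0, with a mean of 0.18 ± 0.048 (SD, n = 4), but its probe was well above background on 1 of 4 BK_APP arrays and on no paired APP_WT array.

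Rac1 read -0.054 ± 0.062 and Nox4 read -0.016 ± 0.064 in BK_APP over APP_WT. Against Nox4 on the same array, Cyba was higher by 0.21, 0.19, 0.22 and 0.20. Against Rac1, Cyba, Cybb, Ncf4 and Rac2 were higher on 4 of 4 arrays, by a mean of 0.17 to 0.25. Rac1 itself read -0.10, -0.027, 0.12 and -0.21 on these arrays, and a value below 0 raises the difference of any probe to it. The share of all probes above Rac1 on every array was not counted. The spread depended on the scaling: for Cyba minus Nox4 the SD was 0.015 with loess, 0.159 with processed signals and 0.615 with median centring. With median centring the means against Rac1 were 0.21 for Cyba, 0.11 for Cybb, 0.075 for Ncf4 and 0.099 for Rac2. Cybb was at background. The exact test again gave the smallest p it can for each of the differences with loess, 0.234 after adjustment.

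No member passed the test with HOE-140. In HOE_APP over APP_WT limma called 0% of all probes, with 5.03% at an unadjusted p under 0.05, and SAM with rank products called 676 probes (2.31%) and no member. Signs are those of the likely direction.

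Rac2 gave HOE_APP over APP_WT ratios of -0.19, -0.22, 0.075 and -0.19. On array 3 the Rac2 value stood apart from the other three, and there 9 of its 10 spots were above 0, while on the other arrays none was. The log2 fold change was -0.13 ± 0.077 with an adjusted p of 0.924. Cyba gave -0.12, 0.012, 0.27 and -0.12, with a log2 fold change of 0.0084 ± 0.071. Ncf4 gave -0.21, 0.041, 0.19 and -0.17, with a log2 fold change of -0.038 ± 0.084. In all of these array 3 was the highest, and no subunit kept 1 direction over the 4 arrays except Cybb.

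Ncf1 gave -0.20 and -0.30 on the arrays with HOE_APP in Cy5 and 0.21 and 0.32 on those with it in Cy3. Its sign followed the dye, and the log2 fold change was 0.0095 ± 0.12. Cybb gave 0.068, 0.17, 0.055 and 0.0092 at background, above 0 on 4 arrays as were 5.66% of all expressed probes. Rac1 read -0.014 ± 0.062 and Nox4 read -0.084 ± 0.064, the latter from 0.058 with HOE_APP in Cy5 and -0.23 with it in Cy3.

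The drugs were compared with each other as BK_APP minus HOE_APP, a difference of coefficients in the limma model, which called 0% of all probes, with 2.5% at an unadjusted p under 0.05. The 2 comparisons may share untreated RNA. Rac2 differed by 0.25 (95% interval 0.0072 to 0.49), with an adjusted p of 1 in limma. Cyba differed by 0.18 (-0.04 to 0.40), Ncf4 by 0.15 (-0.11 to 0.41) and Ncf1 by -0.14 (-0.52 to 0.25). Rac1 differed by -0.041 (-0.24 to 0.16) and Nox4 by 0.067 (-0.13 to 0.27), each with an adjusted p of 1. With processed signals Nox4 read -0.38 under HOE-140, and BK_APP minus HOE_APP was 0.49 ± 0.14 with an adjusted p of 1 in limma. The interval of Rac2 began just above 0, and the others included both 0 and differences as large as their ends. If the HOE_APP arrays ran the other way, the Rac2 difference would be -0.014. With replicate number as a block over the 8 arrays of both drugs the adjusted p-values were 0.365 for Rac2 and 0.501 for Cyba.

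Read as channel levels within each probe, Cyba stood at a mean of 7.84 ± 0.081 (SD, n = 4) in WT, 9.73 ± 0.17 over the 12 APP_WT channels, 9.98 ± 0.19 in BK_APP and 9.76 ± 0.26 in HOE_APP. Only WT lay outside the range of the other groups. Rac2 stood at 6.50 ± 0.15 in WT, 7.65 ± 0.21 in HOE_APP, 7.73 ± 0.23 in APP_WT and 7.91 ± 0.089 in BK_APP. Ncf4 stood at 6.24 ± 0.11 in WT, 7.20 ± 0.23 in APP_WT, 7.21 ± 0.17 in HOE_APP and 7.39 ± 0.093 in BK_APP. In each of these 3 genes the ranges of the transgenic groups overlapped and WT lay below them. The share of all expressed probes with WT apart in this way was not counted. Ncf1 was at 6.25 ± 0.20 in WT, 6.80 ± 0.16 in HOE_APP, 6.87 ± 0.37 in APP_WT and 6.95 ± 0.10 in BK_APP. Rac1 lay between 13.19 and 13.60 on every channel of the 12 arrays, with no group apart. Levels were scaled over arrays of different slides, so the WT gap is firmest within the arrays that held both conditions.

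**Figure D3:**
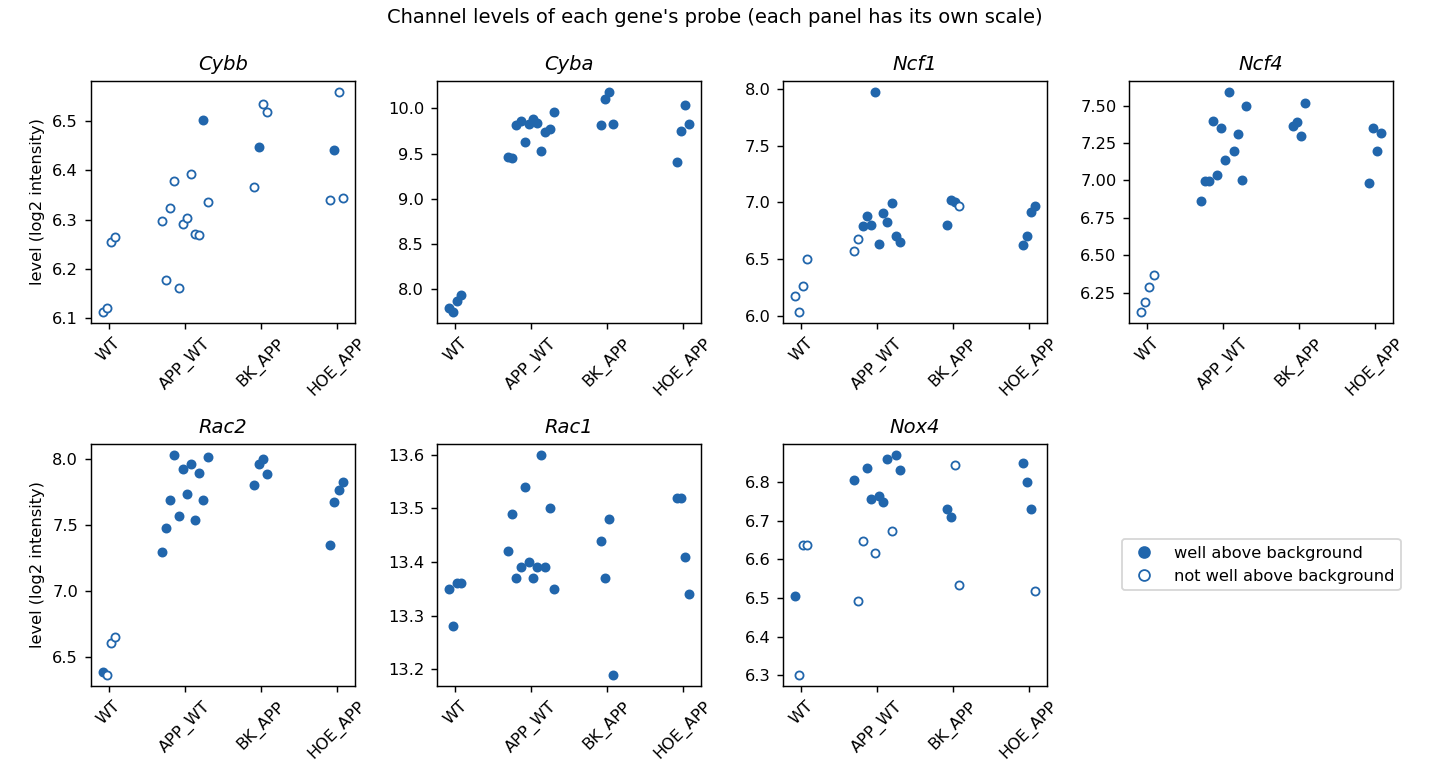
Level (log2 intensity) of the main probe of each gene in every channel of the 12 arrays, grouped by condition. Filled points were well above background, open points were not. WT lies below all transgenic channels in Cyba, Ncf1, Ncf4 and Rac2 and within their range in Rac1.

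The rest of the enzyme family had a median close to 0. The list of oxidase family genes and partners holds 13 genes, of which 11 were on the array and 7 were expressed. Of all 14330 expressed genes 17% rose and 8.03% fell in APP_WT over WT. Of the family 2 rose, 1 fell and 4 did not pass, with a median of -0.048 beside 0.0145 over 14330 expressed genes and 0.97 over the 4 expressed phagocyte subunits. The median of the subunits is partly set by the filter on dim probes. It leaves out Cybb (mean ratio 0.11), and Ncf1, Ncf4 and Rac2 passed only through channels of transgenic neurospheres, where they were higher. Noxo1, an organizer of Nox1, rose by 0.25 ± 0.065 (adjusted p 0.0211) and Hvcn1, the proton channel that balances the charge of the oxidase, by 0.21 ± 0.051 (adjusted p 0.0171). Rap1a, a GTPase found with cytochrome b558, fell by 0.29 (SE 0.081, adjusted p 0.0326 in limma). Array 4 gave no value for Rap1a, so this rests on the other arrays. Cybc1, the chaperone that the gp91phox protein needs, read -0.085 ± 0.056 and Rac3, a neuronal Rac, -0.048 ± 0.073. Nox1 read 0.23 ± 0.14 and Noxa1 -0.09 ± 0.067.

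Of the regulators of Rac, 17 of 19 genes were expressed, and 5 rose and 2 fell in APP_WT over WT (17% and 8.03% of all genes), with a median of 0.086. Vav1, the exchange factor of blood cells, rose by 1.24 ± 0.078 (adjusted p 2.37e-06) and Arhgap25, a Rac inhibitor of leukocytes, by 0.72 ± 0.085. Tiam2, an exchange factor of neurons, fell by 0.44 on the log2 scale, and Chn1, a Rac inhibitor of neurons, by 0.24. Among kinases and receptors upstream of the oxidase 5 of 11 expressed genes rose, beside 17% of all genes, and none fell, with a median of 0.22. Fpr1, a receptor for formyl peptides, rose by 0.61 ± 0.059 and Prkcd, a kinase that phosphorylates p47phox, by 0.60 ± 0.081, and the smallest rise was that of Pik3r5 with 0.31 ± 0.062. Itgb2, a leukocyte integrin, rose by 0.32 ± 0.087. The counts and medians of both lists are partly set by the filter on dim probes. Fpr1, Pik3r5 and Arhgap25 cleared the background on no WT array. They passed only through channels of transgenic neurospheres, where they were higher.

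The enzymes that remove superoxide and peroxide were all expressed, and 7 of 18 rose, beside 17% of all genes, and none fell, with a median of 0.15. Gpx1, a glutathione peroxidase, rose by 0.58 ± 0.054 and Prdx6, a peroxiredoxin, by 0.57 ± 0.049. The ratios of Prdx6 depended strongly on the dye, at 0.0925 and 0.233 with APP_WT in Cy3 and 0.958 and 1.01 with it in Cy5. The superoxide dismutases differed: the extracellular Sod3 rose by 0.53 ± 0.13 (adjusted p 0.0184), whereas Sod1 read 0.11 ± 0.061 and Sod2 0.11 ± 0.048, which did not pass. The smallest rise was that of Prdx5, 0.23 ± 0.059. Of the nitric oxide and peroxidase genes 3 of 6 were expressed. Gch1, which makes the cofactor of nitric oxide synthases, rose by 0.87 ± 0.079 and Nos3 by 0.31 ± 0.072, and Nos2, the inducible synthase, read -0.086 ± 0.064. In both drug comparisons no gene of these lists passed the test. The smallest unadjusted p-values with BK were those of Fpr1 (log2 fold change 0.31) and Gch1 (0.33), both with an adjusted p of 0.967 in limma.

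**Figure D4:**
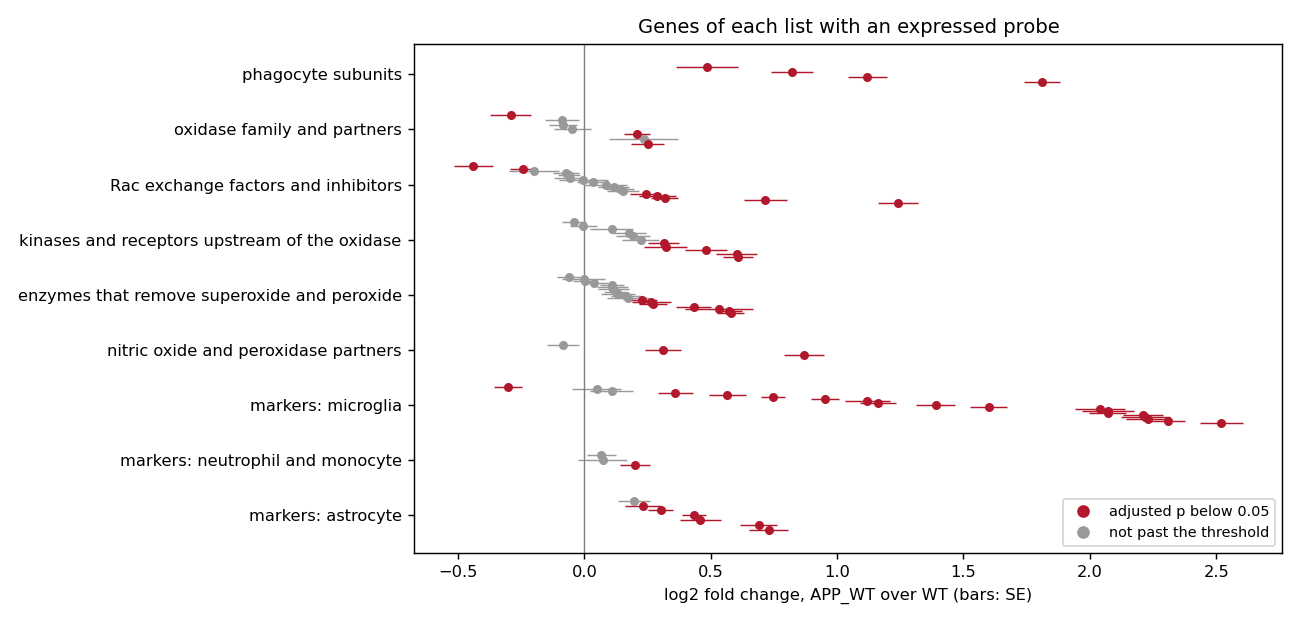
Log2 fold change of APP_WT over WT, with SE, for every gene of 9 lists that has an expressed probe. Red points have an adjusted p below 0.05. The phagocyte subunits and most microglial markers lie to the right of 0, while the oxidase family lies around it.

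Most expressed microglial and astrocyte markers rose in APP_WT over WT, as did the expressed subunits. Of 22 microglial genes 19 were expressed, and in APP_WT over WT 16 rose and 1, Sall1, fell, with a median of 1.39. Of all expressed genes 17% rose and 8.03% fell, which is the share to set beside the counts of each marker list. The microglial count and median are partly set by the filter on dim probes. Several markers, among them Ctss and Cx3cr1, passed it only through channels of transgenic neurospheres, where they were higher. Ctss rose by 2.52 ± 0.086 and Cx3cr1 by 2.31 ± 0.068, and Itgam and Siglech did not pass. The summed level of the list, as log2 of the added intensities, was 14.52 to 14.92 in WT and 14.85 to 15.24 in APP_WT. The defining genes P2ry12 and Spi1, the gene of PU.1, cleared the background on no WT array and on 1 of 12 APP_WT channels each. Of 12 neutrophil and monocyte markers 3 were expressed, and Camp rose by 0.2 ± 0.059, while S100a8, S100a9, Ngp, Ltf, Mpo and Cxcr2 cleared it on no WT array and on at most 1 of 12 APP_WT channels, and Ccr2 on 2 of 4 WT arrays and 1 of 12 APP_WT channels. The summed level of the 3 expressed ones was 14.65 to 14.83 in WT and 14.48 to 15.23 in APP_WT. Of 7 astrocyte markers 6 rose, with a median of 0.43. Of 8 neuron markers 2 rose and 2 fell, among them Dcx, which fell by 0.54 on the log2 scale, and of 5 neural progenitor markers 1 rose and 2 fell, among them Hes5, which fell by 0.63. In the oligodendrocyte lineage 1 of 7 markers, Olig2, fell by 0.21, and of the 6 expressed endothelial and pericyte markers 1, Pdgfrb, fell by 0.45. The part of these cell types in the change of the subunits was not tested, and more cells of a type and more RNA per cell cannot be told apart in these RNA samples.

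Array by array, the median of the 19 microglial markers was 1.47, 1.36, 1.39 and 1.33 in APP_WT over WT and that of the 4 expressed subunits 0.83, 0.96, 0.89 and 1.20. With BK the markers read 0.20, 0.13, 0.16 and -0.022 and the subunits 0.21, 0.039, 0.29 and -0.041. Both lists were above 0 on arrays 1 to 3 and just below 0 on array 4. With HOE-140 the markers read -0.18, -0.093, -0.024 and -0.12 and the subunits -0.20, -0.10, 0.20 and -0.15. The markers were below 0 on all arrays and the subunits on 3 of them. No single marker passed the test in either drug comparison.

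**Figure D5:**
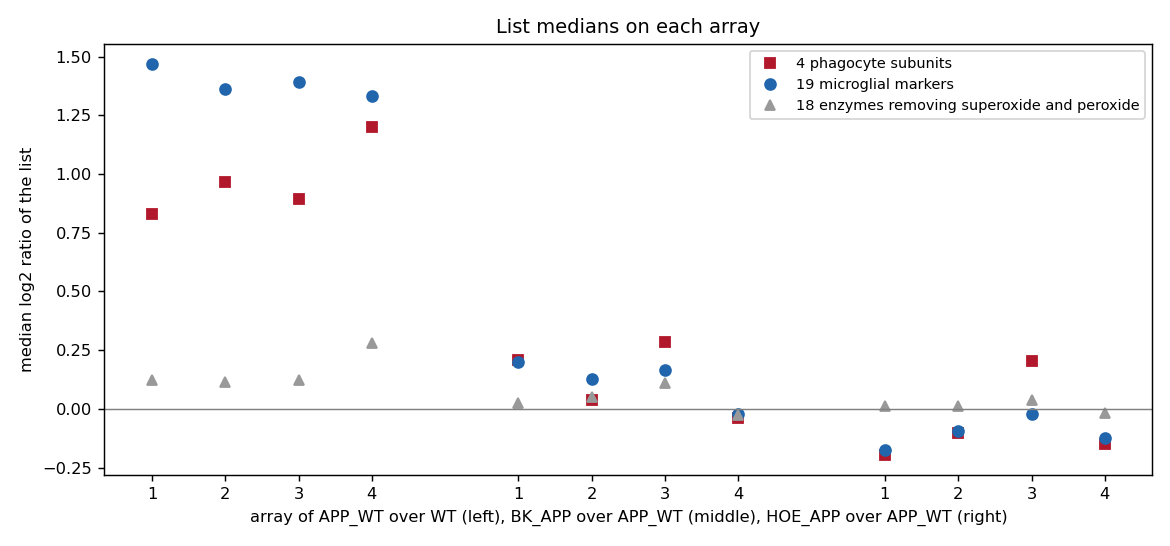
Median log2 ratio on each array of the 4 expressed phagocyte subunits (squares), 19 microglial markers (circles) and 18 enzymes that remove superoxide and peroxide (triangles). Squares and circles are far above 0 on the arrays of APP_WT over WT and between -0.20 and 0.29 on the others.

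Likeness of pattern was measured as the root mean square difference of the log2 ratios over the 12 arrays, among genes with an expressed probe. The subunits nearest to each other were Ncf4 and Rac2 (0.20), and Cyba was nearest to Rac2 (0.42). The genes most like Cyba were Ctsh (0.15), a lysosomal protease, C1qc (0.17) and Lilrb4a (0.17), and those most like Rac2 were Cyth4 (0.10), Tagln2 (0.12) and Trim25 (0.12). Ncf4 was most like Tnf (0.12), Arhgap25 (0.12) and Tnfrsf1a (0.13). The genes nearest to Ncf1 were Adam5, Ulk4 and Kcnj16, each at 0.20, a looser match, and those nearest to Cybb were Apool, Rpl10a and Aprt, whose changes were as small as that of Cybb itself. Genes with small changes lie close to any other such gene on this measure.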

How the data were processed

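The members and gene lists were chosen with earlier results of these data known. For every array the authors deposited Feature Extraction output (version 11.0.1.1 per the file headers), which holds for each spot its median intensity and that of its background in both dyes, flags, and a log10 ratio of the processed intensities, and for the series a log2 ratio sheet whose columns equal those of the processed intensities (r = 1 for each array) with medians between -0.155 and 0.036. No column holds values of another sample.

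Median intensities were corrected by normexp (offset 50) and loess (span 0.3) in limma 3.58.1 (R 4.3.3, data.table version 1.17.8). Control spots (3671 of 62976) and uneven spots were left out, and spots of a probe were averaged. Of 55681 probes 29361 were well above background in 1 condition on at least 3 of 4 arrays of a comparison. An offset of this size shrinks the ratios of dim probes. Levels are channel values after quantile scaling of the mean intensity over arrays. The brightest probe stands for a gene, and genes were named through RefSeq gene records of GRCm38.p6 (27509 of 29150 accessions), used for names and to place the promoter windows. One limma model over the 12 arrays held a mean and a dye coefficient per comparison (6 coefficients, 6 residual and 4.56 prior degrees of freedom). Tests were two-sided with Benjamini-Hochberg adjustment over all expressed probes and a threshold of 0.05. SAM and rank products were an alternative, as were processed signals, median centring, no filter, fits of single comparisons or slides, a replicate block, the deposited log2 ratios and leaving out each array. No member spot was saturated. The model was tested on simulated data.

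Genes named are the members, the genes of the design, for each list those that passed with the largest and smallest change and the other oxidase family genes, and for each subunit the 3 most like it. Fpr1 and Gch1 under BK, Itgb2, Sod1, Sod2, Nos2 and the markers named beyond this rule were chosen after their values were seen. After removal of the dye effect, arrays with the same replicate number deviated together between BK_APP and HOE_APP (r from 0.423 to 0.432 over 4 pairs). The arrays of both drugs deviated in the opposite direction to those of APP_WT over WT (r from -0.507 to -0.206), where APP_WT is the first condition and not the second. Pairs of the same dye order have the same r by construction and are not separate values. Whether arrays of a replicate number share untreated RNA was not tested. Figures were drawn with matplotlib 3.10.9 (Python 3.11.15). Some items of the gene lists are not reported here.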

Additional observations from a re-analysis of the deposited data

Results flagged for a closer look

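In a group of 4 arrays, a value is listed here where its gap to the nearest other exceeded the critical value of Dixon's test. Over 90 groups of 4 values examined, 3 were listed, and chance flags about 1 in 20 groups. In HOE_APP over APP_WT the Rac2 ratio of array 3, 0.0753, lay above the other three, with a gap of 0.907 of the range. The Rac1 level of WT on array 2, 13.28 on the log2 scale, lay below the other WT levels, with a gap of 0.875 of the range. The Nox4 level of APP_WT on 1 array of BK_APP over APP_WT, 6.616, lay below the other three, with a gap of 0.885 of the range. None of these 3 values belongs to a called difference.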

How the results depend on the processing

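The count of 4 called subunits in APP_WT over WT was 4 with each alternative except the deposited log2 ratios, where Ncf1 had no fitted value, and without array 2, 3 or 4, where it was 3. Called probes in that comparison numbered 5446, and 1834 with the comparison fitted on its own without a dye term, 2371 with each slide on its own and 3527 by SAM and rank products, which called 533 (BK_APP) and 676 (HOE_APP) where limma called 0, and 1 subunit, Cyba, with BK. Leaving out 1 array gave 3772 to 5550 probes for APP_WT, 0 to 62 for BK_APP (62 without array 1) and 0 to 9 for HOE_APP (9 without array 4). The replicate block gave 5373 called probes in APP_WT over WT and changed no call of a member, and neither did the block over the 8 drug arrays, which was added after seeing the data. Without a dye term no value of BK_APP minus HOE_APP could be had. What lies behind the changes below was not tested.

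With processed signals Nox4 passed in APP_WT over WT (0.66), Cybb read 0.84, 0.94 and 0.17 in the 3 comparisons, and the second Nox4 probe -0.26, -0.50 and -0.65. Values that changed sign were uncalled. With processed signals these were Nox4 under BK (0.10), Cyba (-0.0065) and Ncf1 (-0.068) under HOE-140, Cybb minus Nox4 in APP_WT over WT (0.19), and under HOE-140 Ncf1 minus Rac1 (-0.055) and Rac2 minus Nox4 (0.19). With the deposited ratios they were Nox4 under BK (0.10) and, under HOE-140, Cyba (-0.0064), Ncf1 (-0.068), Ncf1 minus Rac1 (-0.055) and Rac2 minus Nox4 (0.19). With median centring Rac1 read -0.097, 0.039 and 0.13 and its second probe -0.055 in APP_WT over WT and -0.037 in BK_APP minus HOE_APP, and under HOE-140 Cybb, Cyba and Ncf1 minus Rac1 read -0.093, -0.027 and -0.13. With the HOE_APP sign turned, BK_APP minus HOE_APP was -0.014 for Rac2 and -0.10 for Nox4.

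Leaving out 1 array, sign changes gave ranges in APP_WT over WT of -0.0028 to 0.086 for Cybb minus Rac1, and Ncf1, which lost its call, stayed at 0.42 to 0.55. Under BK the ranges were -0.37 to 0.11 for Ncf1, -0.19 to 0.21 for Ncf1 minus Rac1, -0.25 to 0.20 for Ncf1 minus Nox4 (the upper ends without array 2), -0.089 to 0.057 for Nox4, -0.14 to 0.027 for Rac1 and -0.027 to 0.058 for its second probe. Under HOE-140 they were -0.0899 to 0.11 for Cyba, -0.037 to 0.08 for its second probe, -0.0904 to 0.069 for Cyba minus Rac1, -0.013 to 0.16 for Cyba minus Nox4, -0.017 to 0.036 for Ncf1, -0.081 to 0.17 for Ncf1 minus Rac1, -0.087 to 0.27 for Ncf1 minus Nox4, -0.13 to 0.054 for Ncf4, -0.13 to 0.021 for Ncf4 minus Rac1, -0.049 to 0.13 for Ncf4 minus Nox4, -0.13 to 0.051 for Rac2 minus Nox4, -0.067 to 0.0397 for Rac1 and -0.023 to 0.024 for its second probe. For BK_APP minus HOE_APP they were -0.38 to 0.10 for Ncf1, -0.0055 to 0.14 for Nox4, -0.12 to 0.041 for Rac1 and -0.027 to 0.058 for its second probe.

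The 4 arrays of a comparison limit the precision, and Cybb, Ncf1, Ncf4 and Nox4 lie close to background, where ratios are shrunk. Turned ratios of arrays of opposite dye correlated as low as -0.323 over all probes under BK and -0.32 under HOE-140.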
